A study of Mus musculus with 6 samples.

Results

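The response of miR-155 knockout (KO) macrophages to interleukin-4 (IL-4) was measured by setting the 2 arrays of KO M2 macrophages against the 2 arrays of KO M0 macrophages, which makes 4 of the 6 arrays of the series. KO M2 macrophages received IL-4 at 20 ng/ml for 24 hours, and KO M0 macrophages received medium without a stimulus for the same time. The 2 remaining arrays hold KO M1 macrophages, given LPS and IFN-γ. They entered only the estimate of the spread and the test of whether an IL-4 change differed between the stimuli. Bone marrow cells were grown with L929 supernatant as a source of M-CSF and replated without it on day 7. The titles number the arrays of each condition 1 and 2 as biological replicates. These numbers are read here as 2 mice shared by the conditions, which the titles do not state. All 6 arrays carry the germline miR-155 deletion (B6.Cg-Mir155tm1.1Rsky/J on C57BL/6J), so every value below describes macrophages without miR-155, and wild-type cells were not analysed here. The sources state no sort of the cells after culture, and each array is 1 bulk RNA sample, in which fewer cells of a type and less RNA per cell cannot be told apart.

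IL-4 is a type 2 cytokine that binds a receptor made of IL-4Rα with the common γ chain or IL-13Rα1. Janus kinases on the receptor phosphorylate STAT6, which enters the nucleus and binds palindromic sites of TTC and GAA set 4 bases apart. In mouse macrophages this program is known for arginase-1, RELMα (Retnla), chitinase-like proteins, lectin receptors and chemokines that draw eosinophils and T helper 2 cells, and it is usually called alternative or M2 activation. Interferon-stimulated genes, by contrast, are driven by interferon receptors through STAT and IRF factors, and many hold elements built around repeats of GAAA.

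Values are linear RMA intensities of 1 probe set per gene (the one with the highest mean), given for mouse 1 and then mouse 2. Intensities of different genes come from different probes, so levels are compared only within a gene. A gene rose or fell where limma's adjusted p was under 0.05, and counts over all genes also required a fold of at least 2. The 2 arrays of a condition correlated at r = 0.995 across probe sets in KO M2 and 0.9962 in KO M0, with 120 and 49 of 45037 probe sets over 2-fold apart in KO M2 and in KO M0. Array medians were 39.15 and 38.01 in KO M2, against 40.82 and 39.81 in KO M0. The Gapdh 3′ probe set differed from the 5′ one by 0.20 and 0.11 on the log2 scale in KO M2, against -0.08 and -0.07 in KO M0, and the part of this small difference in RNA integrity or labelling in any result was not tested.

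Of 20967 genes, 377 were at least 2-fold higher in KO M2 (1.8%) and 283 at least 2-fold lower (1.35%). By probe set, 657 of 45037 were higher (1.46%) and 603 lower (1.34%). The rises reached further than the falls: 22 genes rose and 5 fell by 16-fold or more, and 8 genes rose and 0 fell by 64-fold or more. In all 660 genes both KO M2 arrays lay on one side of both KO M0 arrays. The call itself made this nearly certain, here and for the called genes below, so it is no separate support. At the adjusted p alone, 941 genes were higher (4.49%) and 642 lower (3.06%), and the median log2 change over all genes was 0. These last shares are the background for list counts at the adjusted p. At an unadjusted p under 0.05, 2460 of the 20967 genes were higher and 1727 lower by limma. By the methods' t-test (unpaired, on linear intensities) they numbered 1898 and 1487. Those counts are the background for list counts at an unadjusted p.

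**Figure D1:**
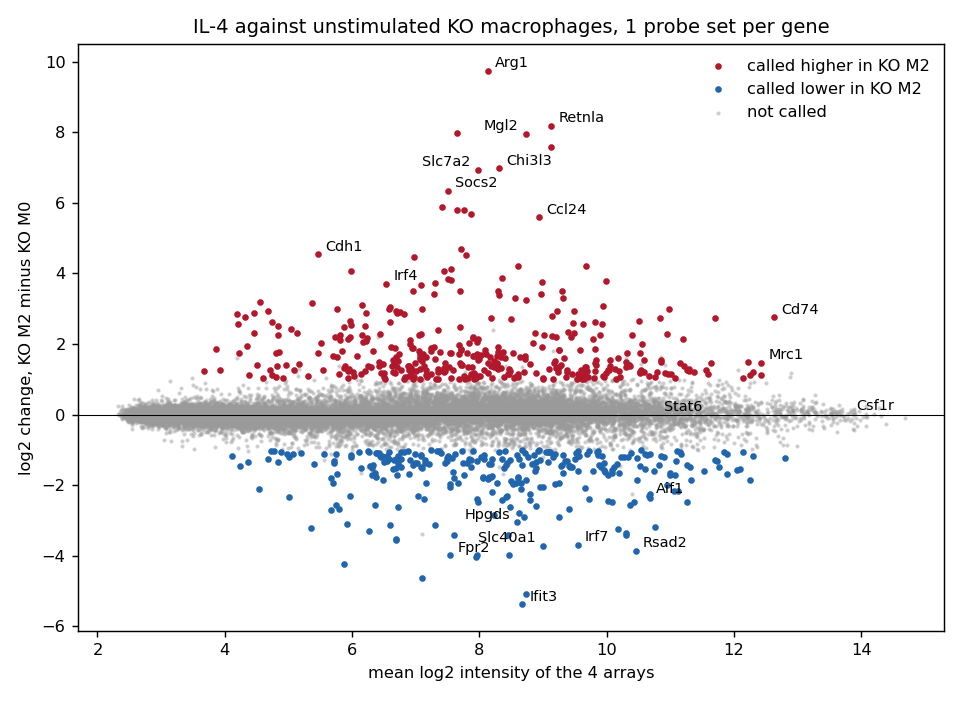
Each point is 1 gene. The horizontal axis gives its mean log2 intensity over the 4 arrays and the vertical axis its log2 change, KO M2 minus KO M0; red points were called at least 2-fold higher, blue points at least 2-fold lower, grey points neither. The rises (377 genes) extend to a log2 change of 9.75 for Arg1, the falls (283 genes) to -5.37 for Ifit3, and Stat6 and Csf1r lie near 0.

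The 4 genes that define IL-4 stimulated macrophages lay below the array medians without IL-4 and rose strongly with it. Arg1, the enzyme that splits arginine into ornithine and urea, measured 9348 and 7191 in KO M2, against 10.4 and 8.78 in KO M0. Retnla, a secreted cysteine-rich protein of type 2 inflammation, measured 10776 and 8509 in KO M2, against 33.7 and 32.1 in KO M0. Mgl2, a lectin for galactose-type sugars, measured 6612 and 6739 in KO M2, against 28.3 and 25.5 in KO M0. Chi3l3, the chitinase-like protein Ym1, measured 4589 and 2764 in KO M2, against 28.1 and 28.4 in KO M0. In each of the 4 genes the KO M2 arrays stood far above the KO M0 arrays, with log2 changes of 9.75 ± 0.22 for Arg1, 8.19 ± 0.14 for Retnla, 7.96 ± 0.13 for Mgl2 and 6.98 ± 0.39 for Chi3l3 (± SE, 2 arrays per condition), and limma's adjusted p was between 6.02e-08 and 3.42e-05. The label of the cultures as IL-4 stimulated was thus met by all 4 markers. The file used here gives no detection calls, and Arg1 in KO M0 lay below the lower quartile of those arrays (15.1 and 14.7), so the size of its rise depends on how dim values are treated: with 16 added to every intensity before the log, the changes were 8.33 for Arg1, 7.29 for Mgl2 and 6.34 for Chi3l3.

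The promoters of 2 of the genes with the largest rises held the letters of a STAT6-type site, and they are printed here to show where that motif lies. The sequences are the 200 bases before the RefSeq gene start on build GRCm38.p6, with TTC, any 4 bases and GAA (a motif that reads the same on both strands) in capitals. Retnla is at chr16:48842409-48842608 on the plus strand, with the motif at -145 from the start. Pdcd1lg2 is at chr19:29410719-29410918 on the plus strand, with the motif at -82.
Retnla: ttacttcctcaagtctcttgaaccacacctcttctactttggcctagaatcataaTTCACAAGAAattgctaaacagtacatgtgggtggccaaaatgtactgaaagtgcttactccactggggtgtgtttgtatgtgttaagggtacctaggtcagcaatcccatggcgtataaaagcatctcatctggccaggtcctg
Pdcd1lg2: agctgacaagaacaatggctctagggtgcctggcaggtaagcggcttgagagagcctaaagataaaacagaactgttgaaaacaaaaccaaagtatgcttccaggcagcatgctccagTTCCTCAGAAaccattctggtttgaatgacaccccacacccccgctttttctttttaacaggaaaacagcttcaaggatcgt
Among the 20 genes with the largest rise, 13 had a RefSeq promoter window (250 bases before to 50 after the start) and 4 of these held the motif, Tmem26 and Rbp4 being the other 2. By gene, with any window counting, the motif was found in 8.0% of all (2164 of 27025) and 6.8% of measured genes (989 of 14441). The gene share was 11.8% for genes called higher (34 of 289) and 8.2% for those called lower (16 of 194). Over all windows of that length the motif was found in 7.0% (2284 of 32851), and over those of measured genes in 5.8% (1044 of 18101). The window share was 8.9% for genes called higher (34 of 383 windows) and 6.7% for genes called lower (16 of 239). It was 20.5% for genes at least 8-fold higher (9 of 44), 17.4% for genes at least 8-fold lower (4 of 23) and 14.3% on the interferon-stimulated list (7 of 49). The match is a description of letters, not of binding.

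Of the 36 measured genes on the list of IL-4 secreted effectors and enzymes, 21 rose, 0 fell and 15 did not pass, and the median log2 change was 1.86. At an unadjusted p under 0.05, 2 were lower by limma and 2 by the methods' t-test. Between 20 and 21 rose when each of the 4 arrays was left out in turn. This list was drawn from what IL-4 is known to do, so its direction is no independent evidence. Beside the markers, Slc7a2, an importer of arginine, measured 2949 and 2639 in KO M2, against 20.0 and 26.2 in KO M0 (log2 change 6.93 ± 0.20). Ear11, an eosinophil-type ribonuclease, measured 3766 and 2732 in KO M2, against 13.7 and 11.8 in KO M0 (7.98 ± 0.17). Ear2 measured 904 and 390 in KO M2, against 27.4 and 25.9 in KO M0, and its change of 4.48 was 3.87 on omitting KO M2 of mouse 1 and 5.08 on omitting KO M2 of mouse 2. The Ear genes are near-identical copies, as are Chi3l3 and Chi3l4, and may share probe signal, so which member of each family rose is uncertain. Ch25h, which makes 25-hydroxycholesterol, measured 930 and 1824 in KO M2, against 21.8 and 22.7 in KO M0 (5.87 ± 0.33). For these dim genes the changes with 16 added were 6.17 for Slc7a2, 6.81 for Ear11, 3.84 for Ear2 and 5.11 for Ch25h, all still past the test.

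Chemokines that attract eosinophils, T helper 2 cells and monocytes rose. Ccl24 (eotaxin-2) measured 3947 and 2952 in KO M2, against 71.9 and 69.7 in KO M0, a log2 change of 5.59 ± 0.16. Ccl22 measured 1015 and 1113 in KO M2, against 48.6 and 34.9 in KO M0, and Ccl17, its partner at the receptor CCR4, measured 366 and 637 in KO M2, against 36.8 and 39.6 in KO M0. Ccl8 measured 4740 and 2610 in KO M2, against 200 and 180 in KO M0. Ccl7, which attracts monocytes, rose by 1.86 ± 0.25, while Ccl2 did not pass (1413 and 2098 in KO M2, against 960 and 944 in KO M0, adjusted p = 0.181), nor did Ccl12 (adjusted p = 0.864). The KO M2 arrays stood above the KO M0 arrays in both mice for each of the 5 chemokines that rose.

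Several genes often listed with alternative activation did not pass. Igf1 (7306 and 8408 in KO M2, against 6528 and 6759 in KO M0, adjusted p = 0.365) passed at its probe set of largest variance (0.56, adjusted p = 0.0261). Alox15, a lipoxygenase, was dim in all 4 arrays (25.0 and 23.8 in KO M2, against 20.1 and 24.0 in KO M0). F13a1 differed more between the mice than between the conditions (645 and 265 in KO M2, against 696 and 260 in KO M0). Il10 was dim in all 4 arrays (14.4 and 14.5 in KO M2, against 27.3 and 31.6 in KO M0, adjusted p = 0.22). Tgfb1 (log2 change 0.42), Il1rn (0.57), Tgm2 (1.42) and Mfge8 (-0.46) had adjusted p between 0.0896 and 0.159. With the 4 arrays alone, 10 named genes passed that did not with all 6, among them Tgm2 (adjusted p = 0.000722), Il10 (0.00159), Il1rn (0.0358) and Ccl2 (0.0214).

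Fn1, the matrix protein fibronectin, measured 3161 and 1092 in KO M2, against 208 and 92.0 in KO M0, a log2 change of 3.75 ± 0.48 (adjusted p = 0.00256). Mouse 1 was the higher of the pair in both conditions, and the change was 4.51 on omitting KO M2 of mouse 2, 2.98 on omitting KO M2 of mouse 1, 4.34 on omitting KO M0 of mouse 1 and 3.16 on omitting KO M0 of mouse 2. The 12 fibroblast and stroma markers also had a higher sum in mouse 1. Their summed intensity was 777 and 380 in KO M2, against 518 and 400 in KO M0. Col1a2 measured 342 and 86.2 in KO M2, against 149 and 83.6 in KO M0. Not every marker went this way, with Pdgfrb and Matn2 slightly higher in mouse 2 in both conditions. Of the 12 markers 0 were called either way (at an unadjusted p under 0.05, 0 higher and 1 lower by limma, and the same by the methods' t-test). On omitting KO M2 of mouse 2, 2 of them were called higher, Col6a1 (2.18, adjusted p = 0.0131) and Col1a2 (1.62, adjusted p = 0.0414). Their part in the Fn1 rise was not tested.

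**Figure D2:**
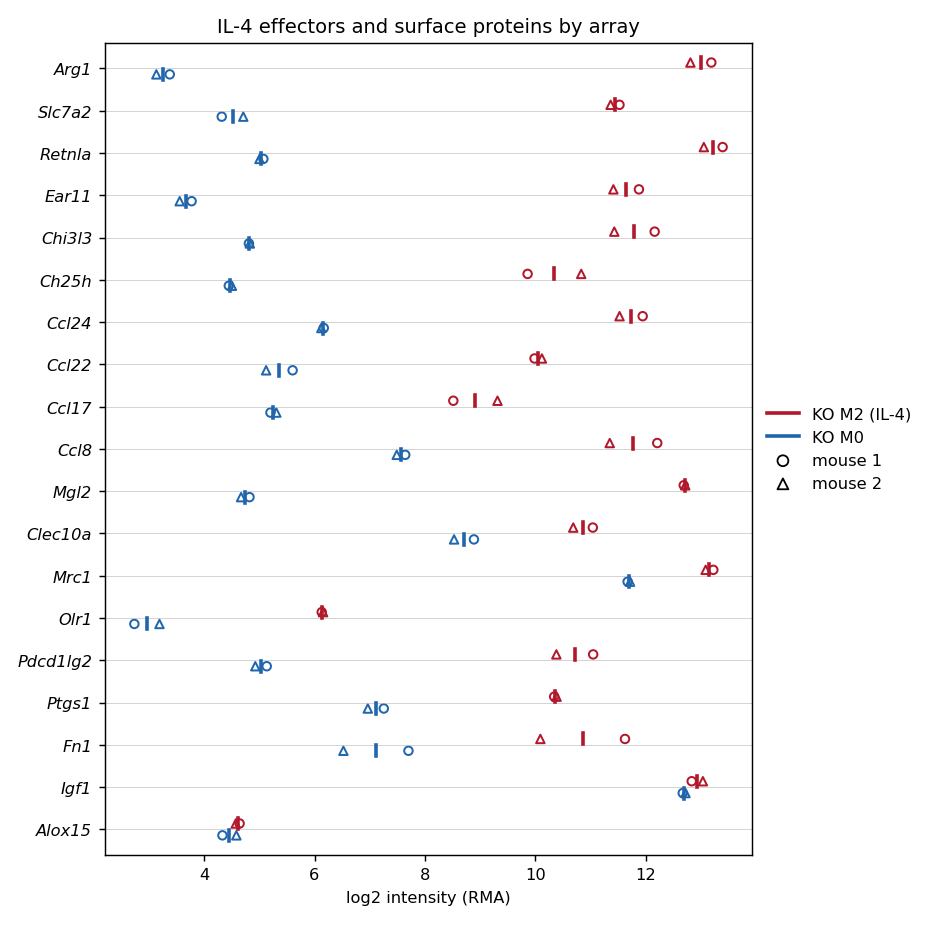
Log2 RMA intensity (horizontal axis) of 19 genes, with KO M2 in red and KO M0 in blue, mouse 1 as circles, mouse 2 as triangles and the mean of the pair as a bar. Both KO M2 points lie right of both KO M0 points for every gene from Arg1 (log2 change 9.75) to Fn1 (3.75), with the shortest distance for Mrc1 (1.46), while the points of Igf1 and Alox15 lie close together.

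Apart from Il13ra1 and Jak2 (below), the receptor and its core pathway changed little in RNA, while feedback inhibitors rose strongly. Of 23 measured genes of the IL-4 receptor and its signalling, 6 rose and 3 fell, with a median log2 change of 0.15. Il4ra (541 and 375 in KO M2, against 364 and 399 in KO M0), Il2rg, Jak1, Jak3, Tyk2 and Stat6 (1842 and 1690 in KO M2, against 1714 and 1791 in KO M0) did not pass, with adjusted p between 0.34 and 0.981. Socs2, an inhibitor of cytokine receptor signalling, measured 1896 and 1404 in KO M2, against 21.2 and 19.2 in KO M0 (log2 change 6.34 ± 0.16). Cish, the founding member of that family and a STAT5 target, measured 1959 and 1447 in KO M2, against 102 and 81.2 in KO M0 (4.21 ± 0.18). Socs1, which blocks JAK kinases, measured 763 and 656 in KO M2, against 50.6 and 50.3 in KO M0 (3.81 ± 0.41). Socs3 did not pass (74.3 and 75.9 in KO M2, against 57.4 and 94.7 in KO M0), so 3 members of the family rose and the inhibitor best known from gp130 receptors did not.

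Among the other signalling genes, Irs2, the adaptor that links the IL-4 receptor to PI3 kinase, measured 175 and 167 in KO M2, against 65.1 and 52.5 in KO M0 (log2 change 1.55 ± 0.15), while its relative Irs1 was dim in all 4 arrays and did not pass. Jak2 measured 1198 and 1105 in KO M2, against 325 and 322 in KO M0. Stat5a rose by 0.74, while the receptor chain Il13ra1 fell by 0.91 and the phosphatase Ptpn6 fell by 1.14. At other probe sets Il13ra1 changed by -1.37, -1.14 and -0.70 (adjusted p = 0.000355, 0.00109 and 0.0138), and a dimmer one did not pass. At the probe sets of highest mean these smaller changes depended on single arrays. Stat5a passed only on omitting KO M2 of mouse 2 (adjusted p = 0.0355) and was at 0.0529 to 0.0912 with any other array omitted. Il13ra1 passed only on omitting KO M2 of mouse 1 (0.0453), and was otherwise at 0.0671 to 0.13, while Ptpn6 was at 0.0911 to 0.168 with any 1 array omitted.

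Of 22 measured IL-4 induced transcription factors, 12 rose and 2 fell, with a median log2 change of 0.96. Bhlhe40, a repressor known for shaping macrophage proliferation, measured 4053 and 3548 in KO M2, against 305 and 247 in KO M0 (3.79 ± 0.33). Irf4, a STAT6 target that directs M2 genes, measured 335 and 335 in KO M2, against 28.0 and 23.6 in KO M0 (3.70 ± 0.14, and 3.07 with 16 added). Klf4, which cooperates with STAT6, measured 916 and 1140 in KO M2, against 73.4 and 130 in KO M0 (3.39 ± 0.31). Batf3, Nfil3, Myc, Atf5 and Ppargc1b rose by 2.71, 2.78, 1.58, 1.56 and 1.36. In these 8 factors both KO M2 arrays stood above both KO M0 arrays and the call held with any 1 of the 4 arrays omitted.

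Egr2, a zinc-finger factor of IL-4 macrophages, rose by 2.99 ± 0.34 at 1 of its 2 probe sets (adjusted p = 0.00138). Its probe set of highest mean measured 1973 and 2004 in KO M2, against 289 and 230 in KO M0. The rise there was 2.95 ± 0.52 (adjusted p = 0.0114). Its widest pair was KO M1 (12.7 and 52.5), and its adjusted p was between 0.0724 and 0.1 when any 1 of the KO M2 or KO M0 arrays was omitted. Pparg, the lipid-sensing nuclear receptor, measured 500 and 468 in KO M2, against 289 and 280 in KO M0, a rise of 0.77 ± 0.12 that passed only on omitting KO M2 of mouse 2 (adjusted p = 0.0311) and was otherwise at 0.0561 to 0.0672. Maf, a transcription factor that restrains self-renewal of macrophages, measured 1159 and 689 in KO M2, against 2355 and 2512 in KO M0. On omitting KO M0 of mouse 1 its adjusted p was 0.0708, and on omitting KO M0 of mouse 2 it was 0.0788. The other fall of the list, Nr1h3 (LXRα), had a log2 change of -0.99, with an adjusted p of 0.0516 with the mouse as a block and between 0.141 and 0.206 with any 1 array omitted. Cebpa, Cebpb, Kdm6b, Rxra and Gata2 did not pass.

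**Figure D3:**
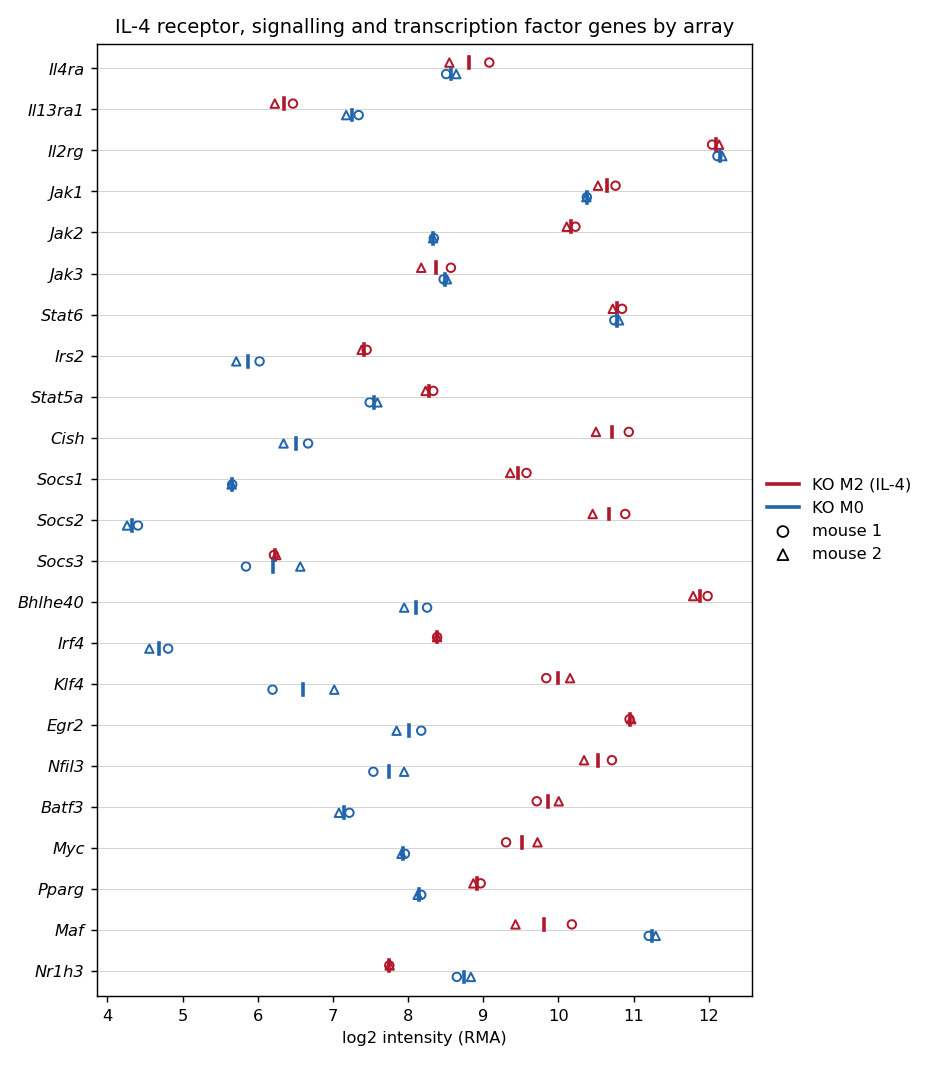
Log2 RMA intensity (horizontal axis) of 23 receptor, kinase, STAT, SOCS and transcription factor genes, with KO M2 in red and KO M0 in blue, mouse 1 as circles, mouse 2 as triangles and the mean of the pair as a bar. The points of Il4ra, Il2rg and Stat6 overlap between conditions, those of KO M2 lie far to the right for Socs2 (log2 change 6.34), Cish (4.21) and Bhlhe40 (3.79), and those of Maf lie to the left (-1.44).

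Lectin and scavenger receptors split. Of 37 measured, 4 rose (Mgl2, Olr1, Clec10a and Mrc1) and 8 fell, with a median log2 change of -0.10. Mrc1, the mannose receptor, measured 9583 and 8705 in KO M2, against 3268 and 3368 in KO M0 (1.46 ± 0.19), so it was already bright without IL-4. Clec10a, the paralogue of Mgl2, measured 2110 and 1650 in KO M2, against 474 and 369 in KO M0 (2.16 ± 0.19). Olr1, a receptor for oxidised LDL, measured 70.1 and 71.3 in KO M2, against 6.66 and 9.13 in KO M0 (3.18 ± 0.18, and 1.86 with 16 added). Clec4d, a receptor for mycobacterial glycolipid, measured 2011 and 2250 in KO M2, against 6316 and 7353 in KO M0 (-1.68 ± 0.13). Marco, a scavenger receptor for bacteria, measured 442 and 769 in KO M2, against 2006 and 5248 in KO M0. Its change of -2.48 ± 0.47 was -3.17 on omitting KO M0 of mouse 1, -1.78 on omitting KO M0 of mouse 2 (adjusted p = 0.106) and -2.08 on omitting KO M2 of mouse 1 (adjusted p = 0.132). The count of 8 falls was 2 on omitting KO M2 of mouse 1 or either KO M0 array, and 4 on omitting KO M2 of mouse 2.

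Genes of antigen presentation by MHC class II rose. Of 16 measured 8 rose and 0 fell (0 at an unadjusted p under 0.05 by limma and by the methods' t-test), with a median log2 change of 0.42. Cd74, the invariant chain, measured 16202 and 16653 in KO M2, against 3010 and 1954 in KO M0 (2.76 ± 0.21). The chains of the class II molecules rose by similar amounts: H2-Aa by 3.01, H2-Eb1 by 3.08 and H2-Ab1 by 2.73. Ciita, the transactivator of these genes, measured 122 and 114 in KO M2, against 29.2 and 24.8 in KO M0 (2.13 ± 0.19). In KO M0 mouse 1 was the higher of the pair for Cd74 and the 3 chains, and in KO M2 both mice stood above both KO M0 arrays. The RFX factors that act with CIITA (Rfx5, Rfxap, Rfxank) had changes between -0.15 and -0.04 and did not pass. The rises numbered 5 on omitting KO M2 of mouse 1 or KO M0 of mouse 2, and H2-DMa, a chain of the class II peptide editor, had an adjusted p of 0.0514 on omitting the first of these arrays and 0.0614 on omitting the second.

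On the MHC class I peptide loading list, 4 of 18 genes fell (Nlrc5, Psmb9, Tap1 and Pdia3) and 17 of 18 changes were negative, with a median of -0.24. None rose (0 at an unadjusted p under 0.05 by limma and by the methods' t-test), and 0 of the 4 falls were left when any 1 of the 4 arrays was omitted. Nlrc5, the class I transactivator, measured 171 and 188 in KO M2, against 487 and 454 in KO M0, with an adjusted p of 0.0392 that became 0.142 to 0.23 with any 1 array omitted. Of 19 costimulatory and inhibitory ligands 2 rose and 1 fell, with a median of 0.01. Pdcd1lg2 (PD-L2), an inhibitory ligand of PD-1, measured 2119 and 1335 in KO M2, against 35.1 and 30.4 in KO M0 (5.69 ± 0.32). Cd83, which stabilises MHC class II at the surface, rose by 1.47 ± 0.16. Lgals9 (galectin-9) measured 1041 and 1210 in KO M2, against 3670 and 3735 in KO M0 (-1.72 ± 0.20).

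Dendritic cell markers moved with these genes. Of 10 measured, 5 rose (Ccl22, Ccl17, Itgax, Batf3 and Zbtb46), and the summed intensity of the list was 11344 and 11437 in KO M2, against 2006 and 1542 in KO M0. A sum over probe sets can be carried by a few bright ones and compares arrays only, not genes. Itgax (CD11c) measured 8854 and 8404 in KO M2, against 1524 and 1092 in KO M0 (2.74 ± 0.32). Zbtb46, a defining factor of classical dendritic cells, was dim (91.7 and 78.4 in KO M2, against 58.4 and 58.1 in KO M0), with an adjusted p of 0.0389, 0.0691 with the mouse as a block, and 0.0629 to 0.217 with any 1 array omitted. Flt3 (82.9 and 82.9 in KO M2, against 90.3 and 87.0 in KO M0), Xcr1, Siglech, Ccr7 and Cd209a did not pass, and Xcr1 was at 10.2 to 12.6 in all 4 arrays. The part of dendritic cells in the class II and chemokine changes was not tested.

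Of the 47 lists, that of the interferon-stimulated genes held the most falls. Of 51 measured, 41 fell, 40 of them by at least 2-fold, and 0 rose (0 at an unadjusted p under 0.05 by limma and by the methods' t-test). The median log2 change was -2.04, and 50 of 51 changes were negative, the exception being Gbp2 (2123 and 3481 in KO M2, against 1783 and 2310 in KO M0, adjusted p = 0.613). The falls numbered 28 to 31 when any 1 array was left out. Ifit3 measured 64.1 and 62.9 in KO M2, against 2878 and 2388 in KO M0, a log2 change of -5.37 ± 0.49. Ifit2 measured 74.1 and 72.8 in KO M2, against 2561 and 2403 in KO M0. Ifit1, like them a protein that binds foreign RNA ends or complexes, measured 57.1 and 65.0 in KO M2, against 999 and 1006 in KO M0. In these genes the pairs were tight, and the KO M0 arrays stood far above the KO M2 arrays.

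The same direction held for regulators and effectors of the interferon response. Irf7, the factor that amplifies type I interferon, measured 261 and 167 in KO M2, against 2769 and 2589 in KO M0 (-3.68 ± 0.21). Oas3, a sensor of double-stranded RNA, measured 116 and 98.2 in KO M2, against 1199 and 1077 in KO M0 (-3.41 ± 0.21). Rtp4 measured 456 and 329 in KO M2, against 4210 and 4051 in KO M0 (-3.42 ± 0.18). Rsad2 (viperin) measured 369 and 370 in KO M2, against 5348 and 5361 in KO M0, and its adjusted p of 0.00438 became 0.0507 on omitting KO M0 of mouse 1. Mx1 had a change of -3.42 and Cmpk2 of -3.98, with adjusted p of 0.0678 to 0.0934 for Mx1 and 0.0639 to 0.121 for Cmpk2 when any 1 array was omitted. Iigp1 fell by 3.55, and its adjusted p was 0.0504 on omitting KO M2 of mouse 1 and 0.0707 on omitting KO M0 of mouse 1. Cxcl10 measured 43.5 and 41.6 in KO M2, against 388 and 508 in KO M0, and did not pass (adjusted p = 0.104). The pair that spread most was KO M1: the median log2 distance of mouse 1 over mouse 2 across the 51 genes was 0.04 in KO M2, 0.08 in KO M0 and 1.03 in KO M1, where 27 genes were over 2-fold apart. With the 4 arrays of KO M2 and KO M0 alone, 45 of the 51 genes fell.

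Promoters of 2 of the genes with the largest falls are printed to show the repeated GAAA element, a motif chosen after the falls were seen. The format is as above, with GAAA, any 2 bases and GAAA in capitals, also where it lies on the opposite strand. Ifit1 is at chr19:34640689-34640888 on the plus strand, with 2 matches that start at -104 and -85. Oas3 is at chr5:120777660-120777859 on the minus strand, with 1 match at -75.
Ifit1: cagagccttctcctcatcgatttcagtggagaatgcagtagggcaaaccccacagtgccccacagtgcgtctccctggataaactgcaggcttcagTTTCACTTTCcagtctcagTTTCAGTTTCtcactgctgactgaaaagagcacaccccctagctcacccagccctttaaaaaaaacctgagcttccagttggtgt
Oas3: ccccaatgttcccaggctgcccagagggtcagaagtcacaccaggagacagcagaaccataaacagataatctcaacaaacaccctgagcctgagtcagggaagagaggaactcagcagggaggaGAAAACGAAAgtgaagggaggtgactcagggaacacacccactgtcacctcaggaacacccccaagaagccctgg
Of the 15 genes with the largest falls, 10 had a promoter window and 4 held the motif, Ifit3 and Rsad2 being the other 2. By gene, with any window counting, it was found in 4.0% of all (1079 of 27025) and 3.5% of measured genes (510 of 14441). The gene share was 21.6% for genes called lower (42 of 194) and 2.8% for those called higher (8 of 289). Among windows of the same length it was found in 3.4% of all (1131 of 32851) and 19.2% of those of genes called lower (46 of 239). The window share was 2.1% for genes called higher (8 of 383) and 46.9% on the interferon-stimulated list (23 of 49). No match in a window says only that these letters were absent there.

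**Figure D4:**
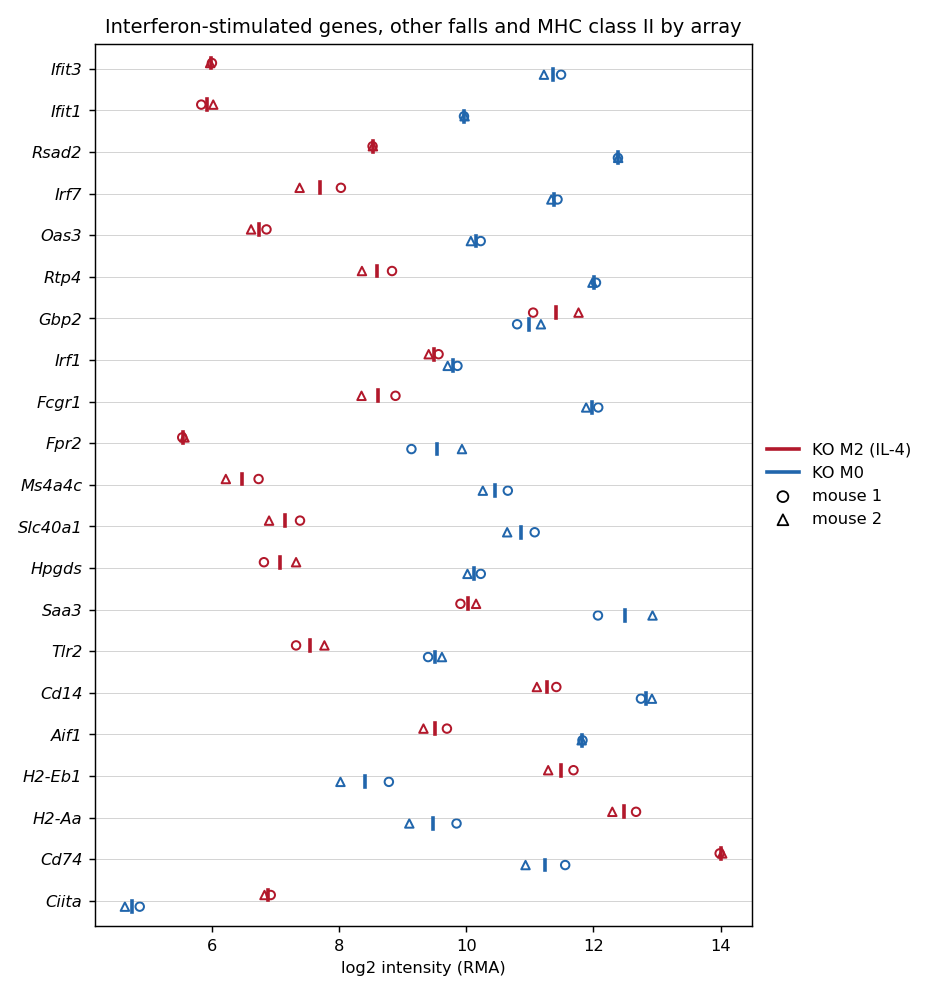
Log2 RMA intensity (horizontal axis) of 21 interferon-stimulated, other falling and MHC class II genes, with KO M2 in red and KO M0 in blue, mouse 1 as circles, mouse 2 as triangles and the mean of the pair as a bar. KO M2 lies left of KO M0 for the interferon-stimulated genes from Ifit3 (log2 change -5.37) to Rtp4 (-3.42), the points of Gbp2 overlap, and the 4 class II genes at the foot show KO M2 to the right.

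Several receptors for microbial products also fell. Of 27 Toll-like receptors and adaptors, 6 fell and 1 rose, with a median log2 change of -0.42, and 5 or 6 fell when any 1 array was left out. Tlr2, the receptor for bacterial lipopeptide, measured 160 and 218 in KO M2, against 676 and 786 in KO M0 (-1.96 ± 0.19). Tlr13, which senses bacterial ribosomal RNA, measured 679 and 642 in KO M2, against 1990 and 2161 in KO M0 (-1.65 ± 0.12). Cd180 and Cd14, the LPS co-receptor, fell by 1.60 and 1.57. The LPS receptor Tlr4 itself had a log2 change of 0.42 and did not pass. The rise, Tollip (0.65), was named after its value was seen and was lost on omitting KO M2 of mouse 1 or either KO M0 array. Tlr7 fell by 1.17 (adjusted p = 0.068 on omitting KO M0 of mouse 1), and Irak3, a brake on the pathway, fell by 1.13 and passed only on omitting KO M0 of mouse 1 (otherwise 0.055 to 0.0844). Fpr2, a receptor for formyl peptides and lipid mediators, fell further than any of these (46.4 and 47.5 in KO M2, against 564 and 978 in KO M0, -3.98 ± 0.23).

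Fc receptors changed in composition. Fcgr1, the high-affinity receptor for IgG, measured 474 and 327 in KO M2, against 4315 and 3783 in KO M0 (-3.36 ± 0.24). Fcgr4, another activating receptor, measured 431 and 167 in KO M2, against 2065 and 1412 in KO M0. Its change of -2.67 was -3.36 on omitting KO M2 of mouse 1, -1.99 on omitting KO M2 of mouse 2, and had an adjusted p of 0.0603 on omitting KO M0 of mouse 1. Fcgr2b, the inhibitory receptor, measured 7845 and 6507 in KO M2, against 3592 and 3026 in KO M0 (1.12 ± 0.15). On the list of 12 Fc receptor genes 1 rose and 3 fell, and 1 fell on omitting KO M0 of mouse 1. Of 12 MS4A membrane proteins 4 fell and 0 rose (0 at an unadjusted p under 0.05 by limma and by the methods' t-test). Ms4a4c measured 107 and 74.6 in KO M2, against 1611 and 1227 in KO M0, with Ms4a6b at 749 and 445 in KO M2, against 5586 and 4846 in KO M0. Ms4a4c has close relatives and its probe set may share their signal.

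Some macrophage identity markers fell. Of 14 measured, 6 fell (Fcgr1, Aif1, Cd14, Mpeg1, Emr1 and Mertk), and their summed intensity was 87281 and 82231 in KO M2, against 111791 and 113944 in KO M0. Csf1r (14988 and 14274 in KO M2, against 14445 and 13936 in KO M0), Cd68, Itgam and Lyz2 did not pass. Aif1 (Iba1), a calcium-binding protein used to stain macrophages, measured 830 and 643 in KO M2, against 3634 and 3603 in KO M0 (-2.31 ± 0.19). Emr1 (F4/80) measured 5235 and 5587 in KO M2, against 8930 and 10633 in KO M0, a change of -0.85 with an adjusted p of 0.0778 on omitting KO M0 of mouse 2 and 0.0618 on omitting KO M2 of mouse 1. Mpeg1 was at 0.0793 on omitting KO M0 of mouse 1 and 0.0577 on omitting KO M0 of mouse 2, and Mertk at 0.0818 to 0.23 with any 1 array omitted. The 6 falls became 3 on omitting KO M0 of mouse 2. Markers of other lineages are given as sums over the same probe sets in each array, which do not measure the share of a cell type. Summed intensities were 2205 and 1723 in KO M2, against 1633 and 1690 in KO M0, over 11 neutrophil markers, 159 and 163 in KO M2, against 169 and 179 in KO M0, over 7 eosinophil markers, and 272 and 266 in KO M2, against 260 and 239 in KO M0, over 10 mast cell and basophil markers. The rise in neutrophil markers was Csf3r, which macrophages also express (adjusted p = 0.0311, 0.0611 with the mouse as a block, and 0.177 to 0.186 on omitting KO M2 of mouse 1 or either KO M0 array), and Epx, Prg2 and Fcer1a were at 8.26 to 18.5 in all 4 arrays. B cell (369 and 329 in KO M2, against 363 and 360 in KO M0), T and NK cell (478 and 413 in KO M2, against 513 and 498 in KO M0) and erythroid sums (300 and 266 in KO M2, against 292 and 276 in KO M0) are given likewise. The 1 call in these 3 lists was the fall of Cd4 (log2 change -0.80, adjusted p = 0.00918). With 1 array omitted it passed only on omitting KO M2 of mouse 1 (adjusted p = 0.0261), and was otherwise at 0.0546 to 0.103. In the eosinophil, mast cell and basophil, B cell and erythroid lists 0 genes were called by limma, with at most 1 in either direction at an unadjusted p under 0.05 by limma or by the methods' t-test.

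Inflammatory genes moved both ways. Of 51 cytokines, chemokines and NF-κB genes, 7 rose and 6 fell (12 and 9 with the 4 arrays alone), with a median log2 change of 0.09. Saa3, an acute-phase protein, measured 961 and 1140 in KO M2, against 4302 and 7795 in KO M0 (-2.47 ± 0.25). Nfkbiz, an atypical IκB, measured 20.0 and 47.3 in KO M2, against 271 and 453 in KO M0, and Il18 measured 187 and 127 in KO M2, against 548 and 498 in KO M0. Nfkbiz passed only on omitting KO M2 of mouse 2 (change -4.13, adjusted p = 0.0313), and was at 0.0708 to 0.12 otherwise, with a change of -2.89 on omitting KO M2 of mouse 1, and Il18 was at 0.0672 on omitting KO M0 of mouse 1. Csf1, the macrophage growth factor M-CSF, measured 1393 and 1577 in KO M2, against 345 and 304 in KO M0 (2.20 ± 0.24). Serpinb2 (PAI-2) rose by 2.30, but had an adjusted p of 0.12 on omitting KO M2 of mouse 2, 0.144 on omitting KO M0 of mouse 1 and 0.109 with 16 added, where its change was 1.31. Nos2, the enzyme of nitric oxide synthesis, did not pass (34.8 and 46.7 in KO M2, against 36.8 and 38.8 in KO M0). The 7 rises became 4 on omitting KO M2 of mouse 2 or KO M0 of mouse 1.

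On the list of 39 growth factor and TGF-β genes 5 rose and 5 fell. Hbegf, a ligand of the EGF receptor, measured 509 and 508 in KO M2, against 62.8 and 36.6 in KO M0 (3.41 ± 0.22), and Pdgfa, a chain of PDGF, measured 589 and 545 in KO M2, against 186 and 180 in KO M0 (1.63 ± 0.14). Flt1, a receptor for VEGF, measured 511 and 469 in KO M2, against 99.9 and 75.5 in KO M0 (2.49 ± 0.16, and 5.78 for its probe set of largest variance). The falls on the list were 3 with the mouse as a block and on omitting KO M2 of mouse 1, and 0 on omitting KO M2 of mouse 2 or either KO M0 array, and the rises were 3 on omitting KO M2 of mouse 1 or KO M0 of mouse 1.

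Lipid mediator genes moved in a mixed way, with 7 of 28 higher and 4 lower (median 0.17). Ptgs1 (COX-1), which makes the prostaglandin precursor, measured 1299 and 1338 in KO M2, against 153 and 125 in KO M0 (3.25 ± 0.14). Hpgds, which turns that precursor into prostaglandin D2, measured 113 and 160 in KO M2, against 1200 and 1038 in KO M0 (-3.05 ± 0.18). The prostacyclin receptor Ptgir measured 627 and 896 in KO M2, against 99.4 and 125 in KO M0 (2.75 ± 0.21), and Ptger2, a receptor for prostaglandin E2, rose by 1.75 ± 0.15. Alox5ap, the helper protein of 5-lipoxygenase, measured 3139 and 3104 in KO M2, against 6395 and 6649 in KO M0 (-1.06 ± 0.13). On omitting KO M0 of mouse 2, 3 of the 7 rises were left, and on omitting KO M0 of mouse 1, 4 were. Of the 4 falls 2, Hpgds and Alox5ap, were left with any 1 array omitted.

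Clotting factors and their receptors were higher in 8 of 23 cases and lower in 1 (median 0.10). F10, the factor X protease precursor, measured 1425 and 988 in KO M2, against 132 and 109 in KO M0 (3.31 ± 0.21). F7 measured 452 and 353 in KO M2, against 112 and 107 in KO M0 (1.87 ± 0.26). F3, tissue factor, measured 64.9 and 54.6 in KO M2, against 8.67 and 7.54 in KO M0 (2.88 ± 0.14, and 1.65 with 16 added). Vwf measured 1182 and 1080 in KO M2, against 239 and 230 in KO M0 (2.27 ± 0.16), and F2r, a thrombin receptor, was dim in KO M0 and rose by 1.74 ± 0.23 (0.94 with 16 added). Tissue factor and its partners factors VII and X were thus all higher in KO M2. The 8 rises became 5 on omitting KO M2 of mouse 2 or KO M0 of mouse 1, and the fall (Gas6, -1.11) was kept only on omitting KO M2 of mouse 1, its adjusted p being 0.0532 to 0.158 otherwise.

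Adhesion and fusion genes included some of the sharpest rises. Cdh1 (E-cadherin), through which IL-4 macrophages contact one another, measured 221 and 207 in KO M2, against 10.3 and 8.14 in KO M0 (4.55 ± 0.15, and 3.19 with 16 added). Itgb3, the β3 integrin chain, measured 1202 and 928 in KO M2, against 52.3 and 41.0 in KO M0 (4.51 ± 0.18). Tm7sf4 (DC-STAMP), which is needed for fusion into giant cells, measured 2488 and 2247 in KO M2, against 483 and 334 in KO M0 (2.56 ± 0.19). Src rose by 1.79 ± 0.17 and Itga1 by 2.50 ± 0.14 (1.59 with 16 added), while Itga6 fell by 1.43 ± 0.14. On the fusion and osteoclast list 7 of 23 rose and 1 fell, and the osteoclast genes Acp5, Nfatc1, Oscar and Calcr did not pass. The 7 rises became 4 on omitting KO M2 of mouse 1 or either KO M0 array, and the fall was lost on omitting KO M0 of mouse 1. Of 30 integrin and adhesion genes 6 rose and 5 fell, the falls becoming 2 on omitting KO M2 of mouse 1 and 3 with any other array omitted. Mmp13, a collagenase, measured 1628 and 1854 in KO M2, against 337 and 244 in KO M0 (2.60 ± 0.18). Of 31 matrix and protease genes, 4 rose and 0 fell (at an unadjusted p under 0.05, 1 by limma and 1 by the methods' t-test), and on omitting KO M2 of mouse 1 or either KO M0 array the rises of Mmp13 and Fn1 were left.

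Arginine and amino acid handling rose beyond Arg1 and Slc7a2, but less firmly. Of 22 arginine and polyamine genes 7 rose and 0 fell (at an unadjusted p under 0.05, 0 by limma and 1 by the methods' t-test), with a median of 0.09. Slc7a11, the cystine importer, measured 237 and 378 in KO M2, against 44.1 and 86.7 in KO M0, and Slc7a1, a second arginine importer, measured 1389 and 1768 in KO M2, against 408 and 699 in KO M0. Mouse 2 was the higher in both conditions. Of 29 amino-acid and ER stress response genes, many of them targets of ATF4, 14 rose and 1 fell, with a median of 0.79. Psat1, of serine synthesis, measured 1830 and 2211 in KO M2, against 580 and 758 in KO M0 (1.60 ± 0.17), Trib3 measured 748 and 1285 in KO M2, against 192 and 349 in KO M0, and Chac1 measured 286 and 408 in KO M2, against 87.8 and 120 in KO M0. On omitting KO M0 of mouse 1, the adjusted p was 0.0641 for Slc7a11, 0.0674 for Slc7a1, 0.0599 for Trib3 and 0.0539 for Chac1, and on omitting KO M2 of mouse 2 it was 0.0605 for Slc7a11 and 0.0749 for Slc7a1. The rises on the amino-acid list numbered 3 of 29 on omitting KO M0 of mouse 1, 8 on omitting KO M2 of mouse 2 and 11 or 12 on omitting either other array. Those on the arginine list numbered 2 on omitting KO M0 of mouse 1 and 3 on omitting KO M2 of mouse 2. The fall, Hsp90b1 (-0.92), was named after its value was seen, and was kept only on omitting KO M2 of mouse 2. Of 26 translation and rRNA synthesis genes 8 rose and 0 fell (0 at an unadjusted p under 0.05 by limma and by the methods' t-test), 25 changes were positive and the median was 0.51, with Rrs1 at 1.20 and Nop58 at 1.21. On omitting KO M0 of mouse 1 the adjusted p of Rrs1 was 0.0568 and that of Nop58 0.0767 (0.126 on omitting KO M0 of mouse 2), and 1 of the 8 rises was left without either KO M0 array and 3 on omitting KO M2 of mouse 2.

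Early-response genes were mixed, with 10 of 29 higher and 2 lower (median 0.44). Dusp4, a phosphatase of MAP kinases, measured 1692 and 1588 in KO M2, against 151 and 155 in KO M0 (3.42 ± 0.26), and Ier3 measured 3693 and 3665 in KO M2, against 532 and 637 in KO M0 (2.66 ± 0.16). Fos measured 1060 and 1034 in KO M2, against 2103 and 2092 in KO M0, and its adjusted p of 0.021 was 0.11 to 0.147 with any 1 array omitted. The rises numbered 3 on omitting KO M0 of mouse 1, 4 on omitting KO M0 of mouse 2, 5 on omitting KO M2 of mouse 1 and 6 on omitting KO M2 of mouse 2, and 0 falls were left in each case. Of 20 purinergic and adenosine genes 2 rose, the ADP receptor P2ry1 by 1.88 and the adenosine receptor Adora2b by 1.77, and 2 fell, of which 0 or 1 were left with any 1 array omitted. Of 17 chemokine receptors 2 fell, Ccrl2 with a change of -1.37 and Cxcr3 with one of -1.24, and 0 rose (at an unadjusted p under 0.05, 2 by limma and 3 by the methods' t-test).

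Of 23 iron genes 2 rose and 4 fell. Slc40a1 (ferroportin), the iron exporter, measured 167 and 120 in KO M2, against 2159 and 1600 in KO M0 (-3.72 ± 0.28). Tfrc, the transferrin receptor that takes iron in, measured 4299 and 4439 in KO M2, against 818 and 972 in KO M0 (2.29 ± 0.14). Slc11a1 (NRAMP1), the metal transporter of the phagosome, measured 1369 and 1401 in KO M2, against 3370 and 3515 in KO M0 (-1.31 ± 0.12). Cp, the ferroxidase ceruloplasmin, measured 172 and 176 in KO M2, against 374 and 455 in KO M0 (-1.25 ± 0.15). The fourth fall was Hmox2, a heme oxygenase, with a change of -0.71 (adjusted p = 0.0375), and its adjusted p was 0.0944 to 0.255 with any 1 array omitted. The second rise, Aco1, was kept only on omitting KO M0 of mouse 2 (adjusted p = 0.0977 to 0.191 otherwise). Mt2, a metal-binding metallothionein, measured 2706 and 3355 in KO M2, against 741 and 764 in KO M0 (2.00 ± 0.14). On the antioxidant and NRF2 list 3 of 27 rose and 1 fell, with 1 rise left on omitting KO M2 of mouse 2 or KO M0 of mouse 1, and 0 falls left with any 1 array omitted.

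Genes of central metabolism are given by list, beside 4.49% higher and 3.06% lower over all genes. On the list of 57 oxidative phosphorylation genes 1 rose, on that of 32 TCA cycle genes 2 rose, and neither list had a fall (at an unadjusted p under 0.05, 0 and 2 by limma, and 0 and 5 by the methods' t-test). Medians were 0.08 and 0.10, and of these rises 1, in the TCA cycle, was left on omitting KO M0 of mouse 2 and 0 with any other array omitted. Of 33 glycolysis genes 4 rose and 1 fell, with 0 rises left on omitting KO M0 of mouse 1, 1 on omitting KO M0 of mouse 2 and 2 on omitting KO M2 of mouse 1, and the fall left only on omitting KO M2 of mouse 1. Pfkp, a phosphofructokinase, measured 2054 and 2244 in KO M2, against 726 and 923 in KO M0 (1.39 ± 0.20, adjusted p = 0.0554 on omitting KO M0 of mouse 1). Of 40 fatty acid genes 3 rose and 4 fell, and of 33 genes of cholesterol and fatty acid synthesis 1 rose and 1 fell, and at most 2 rises and 1 fall of the first list and 1 rise of the second were left with any 1 array omitted. Of 15 cholesterol efflux and LXR genes 3 rose, led by Ch25h, and 5 fell, with 1 or 2 rises left with any 1 array omitted, and with 0 falls left on omitting KO M0 of mouse 1, 1 on omitting KO M2 of mouse 2 and 2 on omitting KO M0 of mouse 2. Of 56 lysosome genes 5 rose and 2 fell, with 2 rises under the mouse as a block and 1 or 2 with any 1 array omitted, and with 0 falls on omitting KO M0 of mouse 2. Atp6v0a1, a proton pump subunit, measured 3778 and 3940 in KO M2, against 1462 and 1497 in KO M0 (1.38 ± 0.14), but its probe set of largest variance changed by 0.10 (adjusted p = 0.913).

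For mitosis, 51 of 56 changes were negative with a median of -0.28, and 1 gene fell and 0 rose. At an unadjusted p under 0.05, 12 were lower by limma and 3 by the methods' t-test, and 0 were higher by either. The fall, Pttg1 (securin), measured 1591 and 1512 in KO M2, against 2947 and 2552 in KO M0. The count of falls was 5 on omitting KO M2 of mouse 2, 3 with the mouse as a block and 0 with any other array omitted. Of 49 replication genes 1 fell and 0 rose (at an unadjusted p under 0.05, 2 higher and 9 lower by limma, and 0 and 3 by the methods' t-test), the count of falls being 4 on omitting KO M2 of mouse 2 and 0 with any other array omitted or with the block. Against KO M1, 49 of the 56 mitosis genes were higher in KO M2, beside 8.99% of all genes. That count compares the 2 stimuli and is not a rise over KO M0, against which 0 of the 56 rose.

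**Figure D5:**
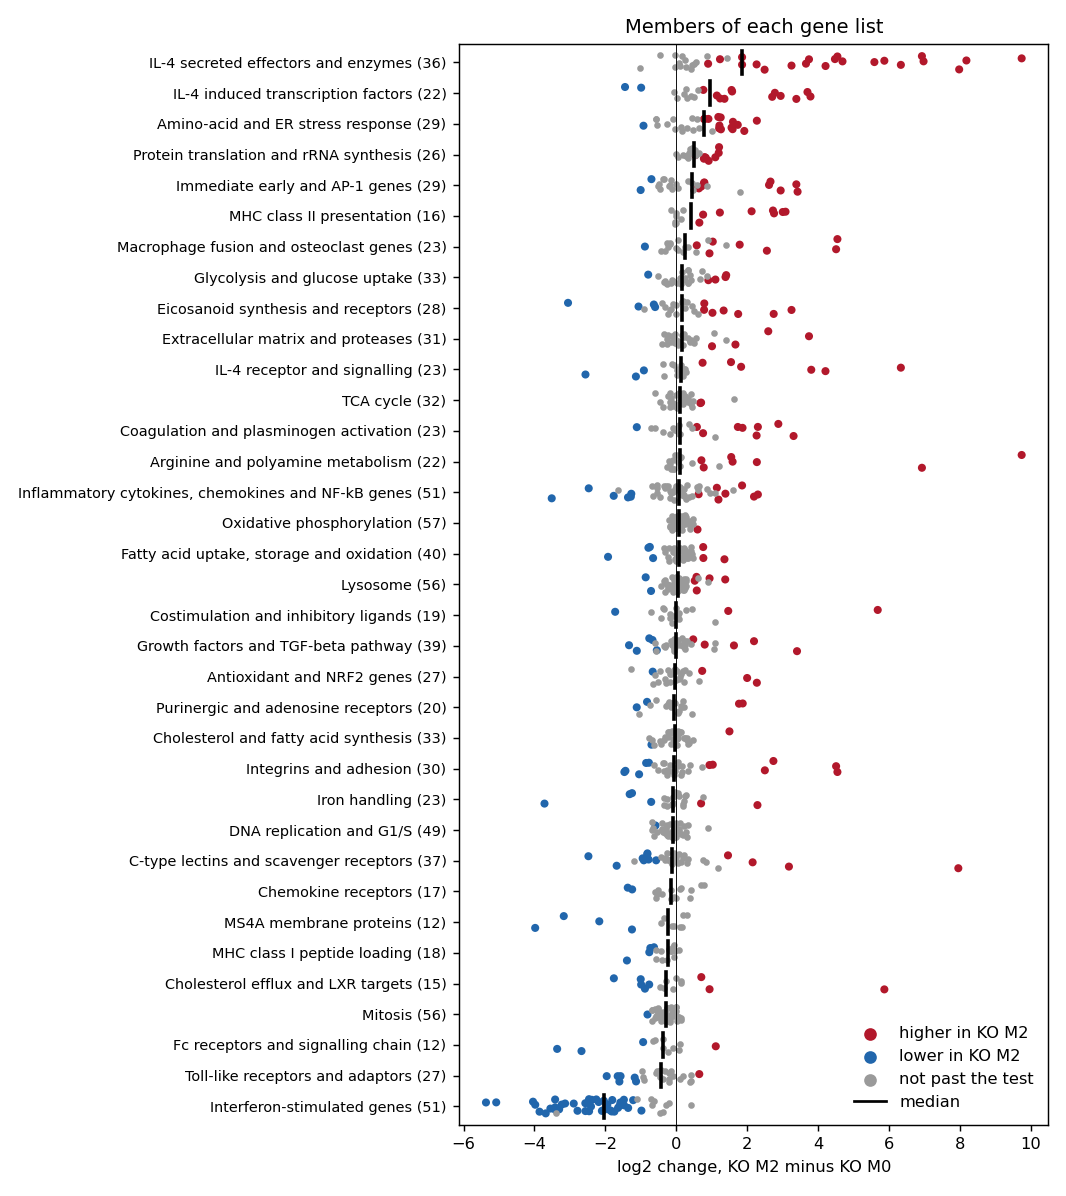
Log2 change, KO M2 minus KO M0, of each measured member (points, red where it rose, blue where it fell, grey where it did not pass) of 35 gene lists, sorted by the list median (bar), with the number of members in brackets. The IL-4 effector list has the highest median (1.86) and the interferon-stimulated list the lowest (-2.04), while most other medians lie near the 0 of all genes.

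The study named 11 genes as M2 genes and 18 as targets of miR-155. Since the study chose both lists, neither is independent evidence here. Of the 11, Arg1, Egr2 and Mrc1 rose, Maf, Ctsc and Tgfbr2 fell, and P2ry14, Hnmt, Adk, Lipa and Igf1 did not pass, with a median of -0.24. Of the 18, Gpr65 and Jarid2 were among those that rose, Maf, Ikbke and Il6ra fell, and 12 did not pass, with a median of -0.03. Gpr65, an acid-sensing receptor, measured 1040 and 1016 in KO M2, against 553 and 507 in KO M0 (0.96 ± 0.13), and Ikbke, a kinase upstream of interferon, measured 410 and 413 in KO M2, against 1100 and 1194 in KO M0 (-1.48 ± 0.15). Both held with any 1 array omitted. Inpp5d (SHIP1), a well-known target, measured 1426 and 1231 in KO M2, against 1653 and 1738 in KO M0, and did not pass (adjusted p = 0.155), while its other probe set did (-0.52, adjusted p = 0.0487). On omitting KO M0 of mouse 2, the adjusted p was 0.1 for Egr2, 0.0788 for Maf, 0.07 for Ctsc, 0.0699 for Tgfbr2 and 0.0944 for Jarid2. On omitting KO M0 of mouse 1 it was 0.0781 for Egr2, 0.0708 for Maf, 0.125 for Tgfbr2 and 0.0934 for Jarid2. Egr2 was at 0.0793 and 0.0724 on omitting the KO M2 arrays, Tgfbr2 at 0.082 on omitting that of mouse 2 and Jarid2 at 0.0876 on omitting that of mouse 1, while Il6ra passed only on omitting KO M0 of mouse 2 (otherwise 0.132 to 0.231, and 0.0594 with the mouse as a block).

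IL-4 was set against LPS and IFN-γ as KO M2 minus KO M1, in which KO M0 cancels. Over all genes, 1885 were higher (8.99%) and 1333 lower (6.36%) in KO M2 than in KO M1 at the adjusted p. Both comparisons use the same KO M2 arrays, so passing in the second is no independent support for a change in the first. The log2 difference from KO M1 was 7.96 for Retnla, 8.03 for Ear11 and 7.94 for Mgl2. It was 3.39 for Slc7a2, where KO M1 measured 317 and 223, and 1.73 for Ccl8, with KO M1 at 1081 and 1035. It was 4.80 for Vwf, 6.00 for Tm7sf4 and 5.82 for Mrc1, more than their changes against KO M0 (2.27, 2.56 and 1.46), with KO M1 below KO M0 in these genes. KO M1 measured 35.2 and 46.6 for Vwf, 33.4 and 40.8 for Tm7sf4 and 130 and 200 for Mrc1. Jak2 (-0.13, adjusted p = 0.709), Fcgr2b (-0.01, adjusted p = 0.968) and Ptger2 (0.36, adjusted p = 0.166) rose against KO M0 but did not pass against KO M1. Slc40a1 fell against KO M0 and did not pass against KO M1 (-0.82, adjusted p = 0.102, with KO M1 at 331 and 187). Of the 51 interferon-stimulated genes, 48 were lower in KO M2 than in KO M1.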

How the data were processed

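Total RNA of 6 cultures was hybridised to Affymetrix Mouse 430 2.0 arrays, 1 per culture, 2 per condition. The authors made the deposited intensity values with RMA (GenePattern) on a linear scale, which gives no detection calls; the mean and comparison columns in the table hold the authors' own group means and fold changes and were not used. The deposited series matrix held the same intensity values to within 5e-06. Values were taken to log2 and fitted with limma 3.58.1 in R 4.3.3 over all 6 arrays (3 residual and 5.49 prior degrees of freedom), with the contrast KO M2 minus KO M0 and Benjamini-Hochberg adjustment over 45037 probe sets (64 control probe sets left out). The fit was tested on simulated data. Of these probe sets, 38544 had 1 symbol, 859 several and 5634 none. Genes (20967) were represented by the probe set of highest mean. Of the symbols, 16422 are current in RefSeq and 2053 are synonyms.

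The 316 genes chosen by rule include the 20 largest rises and 15 largest falls, and all members of the IL-4, study-named and marker lists. They also include up to 6 passing members of each other list. Genes outside this rule were named with their values known. Among them are Tollip, Hsp90b1, Gbp2, Cxcl10, Tlr4, Nos2, Rfx5, Rfxap, Rfxank, Acp5, Nfatc1, Oscar and Calcr. The genes and all 47 lists were chosen with earlier results of these data known. Promoters come from RefSeq. Arrays with the same number share a mouse by their labels (deviations of KO M2 and KO M0 correlated at 0.209), and the mouse as a block was an alternative, as were the 4 arrays alone, leaving out each array, other normalization, filters, offsets and moderation, and the methods' t-test. The number of arrays limits the precision, and 2 arrays per condition, read as 2 mice, are the whole basis of every p-value. Some list members are not reported here by name, but they count in the list totals.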

Additional observations from a re-analysis of the deposited data

How the results depend on the processing

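The 657 higher and 603 lower probe sets ranged over 491 to 700 higher and 395 to 651 lower when each array was left out, the lowest counts (491 and 395) being without KO M0 of mouse 1. Each such fit has 1 residual degree of freedom fewer. Adding 16 to each intensity gave 487 higher and 386 lower. Without the 2-fold threshold there were 1624 higher and 1610 lower. The methods' t-test gave 525 higher and 524 lower at its unadjusted threshold and 0 of either after Benjamini-Hochberg adjustment. With the 4 arrays alone the counts were 700 and 643, with the mouse as a replicate block 646 and 577, and after shifting arrays to a common median 739 and 507. Stat3, which did not pass (log2 change 0.14), changed by -0.98 at its probe set of largest variance (adjusted p = 0.00274). At that probe set the change was 3.97 for H2-Aa, 3.92 for Ptgs1, -5.16 for Ms4a4c, -2.08 for Maf, -3.13 for Marco, -1.45 for Ctsc and 1.24 for Zbtb46. It was 2.99 for Egr2, -1.25 for Tgfbr2, 2.515 for Slc7a11 and -1.37 for Il13ra1. The causes were not tested.

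Of the 316 named genes, 190 passed, 174 of these also with the mouse as a block and 101 also without each KO M2 and KO M0 array in turn. The block changed no other call of a named gene, apart from adding Rbpj (adjusted p = 0.0448). The calls of 30 ended with 16 added (among the genes above Ptpn6, Nr1h3, Marco, Nlrc5, Tap1, Mx1, Cmpk2, Iigp1, Nfkbiz, Mertk, Fos and Il6ra), and of 16 with a trended, robust prior (among them Egr2, Fn1, Ifit1, Rsad2, Marco and Mx1). With the 4 arrays alone, falls of Toll-like receptor genes numbered 10, rises of inflammatory genes 12 and rises of matrix genes 7.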
